A study of Mus musculus with 6 samples.

Results

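Hox genes were described in RNA from aortas of 2 genotypes, Mymsl KO (3 libraries), in which the gene of a long noncoding RNA is knocked out, and Mymsl WT (3 libraries). Members were the rows of the deposited count table whose name begins with Hox, a cluster letter from a to d and a number, together with Hotair and Hotairm1, which makes 45 of 53735 rows. They comprise 39 protein-coding Hox genes and 6 noncoding rows (Hoxa11os, Hoxb3os, Hoxb5os, Hoxd3os1, Hotair and Hotairm1). The labels give genotype and tissue, and say that the RNA came from medial smooth muscle cells, but not which stretch of the aorta was taken, how the deletion was made, whether a library pooled animals, or the strain, age and sex.

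Hox genes encode homeodomain transcription factors that give cells a position along the head-to-tail axis. In mammals they lie in 4 clusters, and within a cluster the gene order follows the order of expression along the body, from paralogue group 1 (anterior) to group 13 (posterior). Smooth muscle of the aortic arch derives largely from neural crest and that of the descending aorta from mesoderm, and adult vascular smooth muscle keeps a Hox pattern related to its place of origin. Here groups 1 to 3 are called anterior, 4 to 8 central and 9 to 13 posterior. On GRCm38 with GENCODE M21, cluster A lies on chromosome 6, cluster B spans chr11:96194316-96368256, cluster C chr15:102921103-103036852 and cluster D chr2:74668310-74765142.

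Total counts lay between 23506674 and 25521123 in WT and between 20048216 and 23243129 in KO. Levels are given as CPM, the read count scaled to a common effective library size, so 1 count was worth 0.0397 to 0.0516 CPM. Defining smooth muscle markers (10 genes, among them Acta2, Myh11, Tagln and Cnn1) summed to 54900 to 58700 CPM in WT and to 44400, 59600 and 48900 CPM in KO replicates 1, 2 and 3. In that list DESeq2 called Itga8 lower in KO (adjusted p = 0.0161), and edgeR called none (0). No row (0) bore the name Mymsl, so its own transcript was not analysed here. KO replicate 1 stood apart in mitochondrial RNA: mitochondrially encoded genes held 18.9% of its counts, against 10% and 13% in KO replicates 2 and 3 and 5.66% to 9.02% in WT.

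Hox promoters are shown for genes on either side of the pattern that the results turn on. In KO replicate 1 Hoxd8 was at 13.9% of the WT mean and its paralogue Hoxb8 at 89.7%, and in cluster A Hoxa10 was at 10.8% and Hoxa7 at 90.5%. RefSeq (GRCm38.p6) gave promoters for 22 of the 39 coding genes, from 250 bases before to 50 bases after the start. Those of Hoxc10, Hoxb9 and other members were not in the table used. Of the 2 RefSeq starts of Hoxa10, the one at the GENCODE start is shown, and the window of the other held 21 CG dinucleotides and 1 TTTAT match. The RefSeq start of Hoxa7 used here lies inside the longer GENCODE model. Capitals mark TTTAT on either strand, the core that posterior Hox and Cdx proteins prefer.
Hoxb8 (chr11:96281655-96281954, plus strand): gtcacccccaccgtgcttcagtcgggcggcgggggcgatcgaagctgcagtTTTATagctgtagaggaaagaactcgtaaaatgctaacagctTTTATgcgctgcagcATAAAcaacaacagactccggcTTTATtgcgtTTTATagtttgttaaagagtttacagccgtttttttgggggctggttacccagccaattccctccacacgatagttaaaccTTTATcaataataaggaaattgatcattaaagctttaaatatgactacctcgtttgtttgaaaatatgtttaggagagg
Hoxd8 (chr2:74704365-74704664, plus strand): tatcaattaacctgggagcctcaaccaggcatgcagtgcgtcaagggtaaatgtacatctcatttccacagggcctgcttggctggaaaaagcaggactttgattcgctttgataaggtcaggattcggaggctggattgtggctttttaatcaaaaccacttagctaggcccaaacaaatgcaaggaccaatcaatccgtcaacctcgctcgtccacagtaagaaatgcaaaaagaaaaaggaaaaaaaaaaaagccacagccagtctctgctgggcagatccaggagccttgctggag
Hoxa7 (chr6:52218524-52218823, minus strand): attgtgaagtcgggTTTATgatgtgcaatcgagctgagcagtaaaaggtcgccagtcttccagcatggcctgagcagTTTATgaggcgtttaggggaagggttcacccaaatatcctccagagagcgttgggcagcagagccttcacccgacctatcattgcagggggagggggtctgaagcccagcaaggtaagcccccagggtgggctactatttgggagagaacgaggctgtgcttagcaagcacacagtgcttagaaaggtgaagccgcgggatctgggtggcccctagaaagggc
Hoxa10 (chr6:52240805-52241104, minus strand): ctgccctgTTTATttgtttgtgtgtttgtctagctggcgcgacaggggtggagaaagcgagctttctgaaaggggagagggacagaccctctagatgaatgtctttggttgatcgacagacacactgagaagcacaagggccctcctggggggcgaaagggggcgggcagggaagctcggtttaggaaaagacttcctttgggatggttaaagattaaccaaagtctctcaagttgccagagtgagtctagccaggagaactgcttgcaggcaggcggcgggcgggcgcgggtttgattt

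These letters occurred 6 times in the Hoxb8 window, 2 times in that of Hoxa7, 1 time in that of Hoxa10 and 0 times in that of Hoxd8. Other windows did not keep this contrast. Those of Hoxa3, Hoxa5 and Hoxb4, which were not low in KO replicate 1, held 0 matches. So did those of Hoxa9, Hoxa11 and Hoxd9, which were low there. Over all 32851 promoters of that length, 40.0% held the motif on at least 1 strand, against 9 of 24 windows of coding Hox genes. The Hox-Pbx composite TGATNNAT, searched on both strands, was found in 4 of those 24 windows and in 8.85% of all promoters, and TAATTA in 2 and in 5.29%. Motifs were counted separately, so matches may overlap. CG dinucleotides numbered 13 in the Hoxb8 window, 6 in that of Hoxd8, 9 in that of Hoxa7 and 12 in that of Hoxa10 shown, against a median of 7 over all promoters.

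In WT aorta the Hox RNA came mainly from anterior and central genes of clusters A and B. Coding Hox genes summed to 296.7 ± 4.61 CPM (SD, n = 3), of which cluster A gave 141.2 ± 1.95, cluster B 123 ± 7.98, cluster C 23.0 ± 1.76 and cluster D 9.52 ± 2.03. Per kilobase of exon, Hoxa7 stood first in WT at 15 ± 0.768 CPM per kb, followed by Hoxa5 at 10.6 ± 0.313. Hoxb7 (9.27 ± 0.696) and Hoxb6 (9.09 ± 0.977) came next and did not differ beyond their spread, nor did Hoxb2 (6.67 ± 0.585) and Hoxb3 (6.42 ± 0.414). Among posterior genes Hoxa10 was highest at 3.66 ± 0.444 CPM per kb, then Hoxc10 at 3.28 ± 0.362 and Hoxa9 at 1.87 ± 0.483. Summed over paralogues, group 7 was highest at 24.2 CPM per kb in WT and 22.6 in KO, and groups 12 and 13 were under 0.08.

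Of the 45 members, 30 passed the filter on low counts, 26 of them coding. The 13 coding genes that did not pass were Hoxb1, Hoxb13, Hoxc11, Hoxc12, Hoxc13, Hoxd1, Hoxd3, Hoxd4, Hoxd10, Hoxd11, Hoxd12, Hoxd13 and Hoxa13. Hoxb1, Hoxb13, Hoxd1 and Hoxd12 were at 0 counts in every library, which over the WT group allows up to 0.0409 CPM and over the KO group up to 0.0473 CPM. Hoxd4 had 3 to 16 counts per library and each of the others at most 10. In GENCODE M21, Hoxd3 shares 62.3% and Hoxd4 52.3% of exon length with each other and Gm28230 on the same strand. The counts of Hoxd3 and Hoxd4, and the cluster D sum, are therefore uncertain. Cluster D was thus represented in the test by Hoxd8 and Hoxd9 alone among coding genes.

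No Hox row was called between genotypes: 0 of 30 passed edgeR's quasi-likelihood test at an adjusted p of 0.05, where 0.00707% of 14145 tested genes did (1 gene, lower in KO). At an unadjusted p under 0.05 there were 2 members higher (Hoxa4 and Hoxb4; 6.80% of all genes were higher at that limit) and 1 lower (Hoxa11; 7.76% of all genes). DESeq2 gave an adjusted p to 9 members and called 0 of them, while it called 2.35% of the 8467 genes with an adjusted p (0.709% higher and 1.64% lower), and limma-voom also called 0 members. The 9 held no posterior gene and no gene of clusters C or D, so DESeq2 could not call any of those. Every KO library lay below every WT library for Hoxa11, Hoxc10 and Hoxc4, 3 of 30 members, where 11.3% of all tested genes did so. Every KO library lay above every WT library for Hoxa4 and Hoxb4, 2 of 30, against 10.5% of all genes. These shares lay near the background.

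The KO libraries differed among themselves. The 6 tested posterior genes of clusters A, C and D lay at 0% to 36.6% of the WT mean in KO replicate 1, at 18.2% to 52.8% in KO replicate 2 and at 52.9% to 188% in KO replicate 3. Genes of cluster B lay at 76.4% to 195% over the 3 KO libraries, with Hoxb4 in KO replicate 1 the highest, and anterior genes at 76.4% to 126%. Under 50% of the WT mean lay 8 of 30 tested members in KO replicate 1 (26.7%, where 2.02% of all tested genes did), 6 in KO replicate 2 (20% against 2.10%) and 0 in KO replicate 3 (1.02% of all genes). Both KO replicates 1 and 2 were under that limit for 6 members (20%) and for 73 of all tested genes (0.516%). The limit of 50% was chosen after the values were seen. The plot of levels along the clusters shows each gene in each library.

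**Figure D1:**
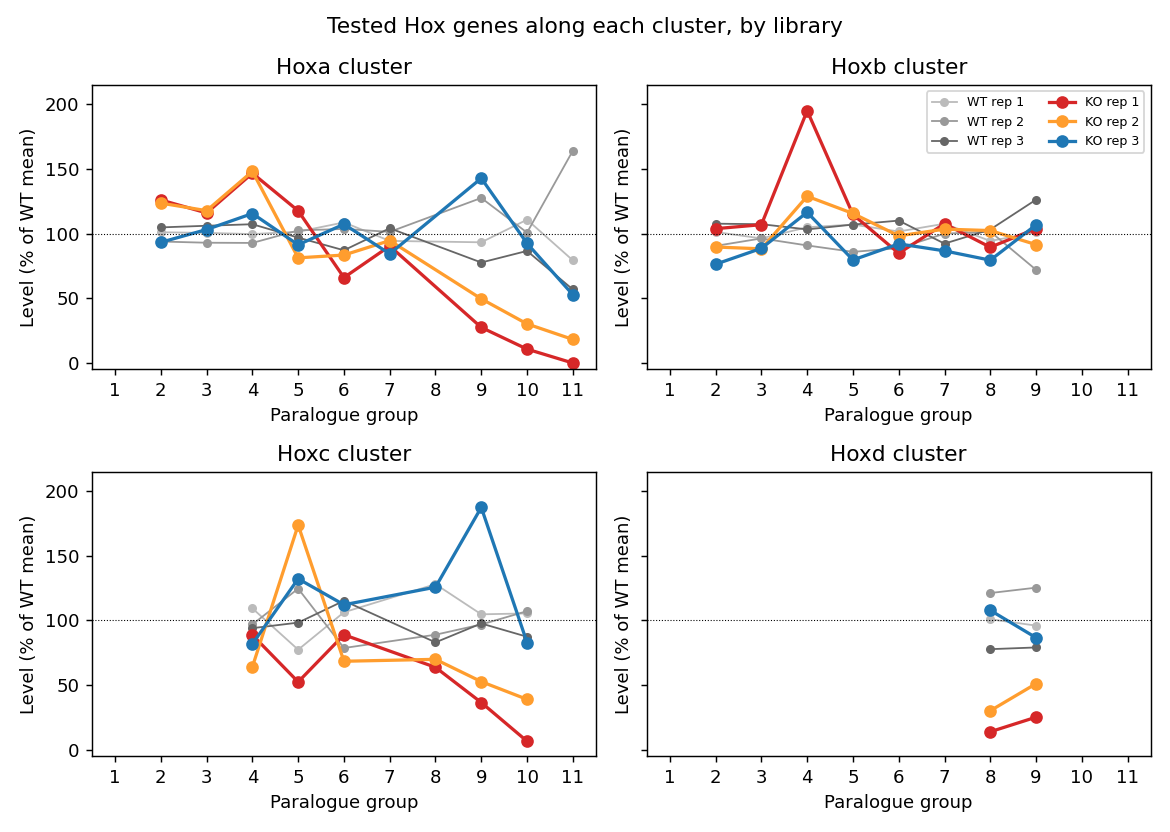
Level of tested coding Hox genes in each library, as percent of the WT mean, against its paralogue group, with 1 panel per cluster; points are libraries and lines join genes of 1 library. In cluster A the lines of KO replicates 1 and 2 run below the WT libraries from group 9 on, down to 0% and 18.2% for Hoxa11, in cluster C from group 8 on and in cluster D for both tested genes, while in cluster B all 3 KO lines end near 100%.

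Posterior genes were first compared in cluster A. Hoxa9, a regulator of posterior axial identity and of blood progenitors, stood in WT replicates 1, 2 and 3 at 9.80, 13.4 and 8.16 CPM, and in KO replicates 1, 2 and 3 at 2.89, 5.21 and 15 CPM. Further library values keep that order. KO replicates 1 and 2 were below all WT libraries and KO replicate 3 was above them. The log2 fold change of Hoxa9 was −0.43 ± 0.52 (SE; edgeR, adjusted p = 0.723), and it was −0.05 without KO replicate 1, −0.21 without KO replicate 2 or WT replicate 2 and −1.36 without KO replicate 3. Hoxa10, which patterns lumbar vertebrae and the uterus, measured 13.3, 12.1 and 10.4 CPM in WT and 1.29, 3.63 and 11.1 CPM in KO. Here KO replicate 3 lay inside the WT range. Hoxa10 had a log2 fold change of −1.14 ± 0.59 (edgeR, adjusted p = 0.397), −0.69 without KO replicate 1 and −2.27 without KO replicate 3. In KO replicate 1 the 25 counts of Hoxa10 put it at 10.8% of the WT mean, with an exact Poisson interval of 6.98% to 15.9% for the counting error of that library. Hoxa11, needed for limb and kidney development, was low everywhere, at counts of 25, 54 and 18 in the WT libraries against 0, 5 and 16 in KO. All KO libraries were below all WT libraries, and the 0 in KO replicate 1 allows up to 11.8% of the WT mean. Its log2 fold change was −2.0 ± 0.80 (edgeR, adjusted p = 0.322), and −3.36 without KO replicate 3. GENCODE M21 places 35.0% of Hoxa11 exon under Hoxa11os on the other strand, so how reads were divided between them depends on whether counting used strand, which the sources used here do not give.

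The same libraries were low in clusters C and D. Hoxc10, a posterior gene of limb and spinal motor neuron patterning, measured 6.60, 6.71 and 5.47 CPM in WT and 0.413, 2.44 and 5.19 CPM in KO. All KO libraries were below all WT libraries, KO replicate 3 by a narrow margin. Its log2 fold change was −1.20 ± 0.61 (edgeR, adjusted p = 0.390), −0.71 without KO replicate 1 and −2.11 without KO replicate 3. GENCODE M21 has 8.7% of Hoxc10 exon shared with Hoxc5 on the same strand, so Hoxc10 counts are uncertain in that part. Hoxc9 measured 1.33, 1.23 and 1.24 CPM in WT and 0.464, 0.669 and 2.38 CPM in KO, so KO libraries lay on both sides of the WT range (log2 −0.09 ± 0.56). Without KO replicate 1 or 2 the Hoxc9 value turned to 0.27 or 0.19, and without KO replicate 3 it was −1.15. Hoxd9 measured 2.16, 2.82 and 1.78 CPM in WT and 0.567, 1.15 and 1.95 CPM in KO (log2 −0.87 ± 0.42, adjusted p = 0.374). Leaving out KO replicate 1 gave −0.54 for Hoxd9, and leaving out KO replicate 3 gave −1.38. In that cluster the low values reached into the central class: Hoxd8 measured 6.72, 8.07 and 5.18 CPM in WT and 0.928, 2.01 and 7.18 CPM in KO (log2 −0.96 ± 0.60, adjusted p = 0.469). For Hoxd8 the corresponding values were −0.53 and −2.17. Hoxc8 had a milder difference in the same libraries, at 2.48 and 2.72 CPM in KO replicates 1 and 2, 4.89 in KO replicate 3 and 3.23 to 4.98 in WT.

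**Figure D2:**
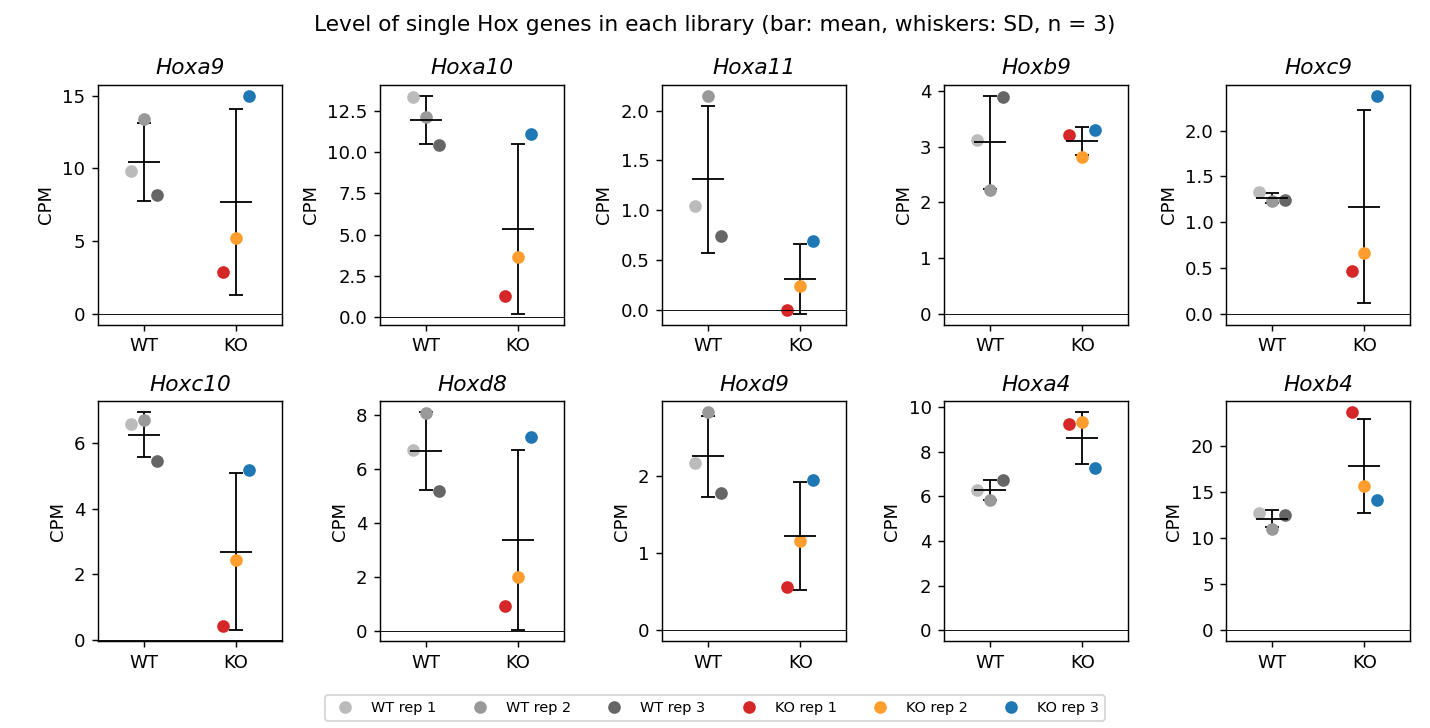
CPM of 8 genes of groups 8 to 11 and of the group 4 genes Hoxa4 and Hoxb4 in each library (points), with mean and SD of 3 libraries per genotype. For Hoxa10, KO replicates 1 and 2 lie at 1.29 and 3.63 CPM and KO replicate 3 at 11.1 CPM, within the WT range of 10.4 to 13.3; for Hoxb9 all libraries lie between 2.22 and 3.89 CPM.

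Hoxb9, the posterior gene of cluster B that was measured, did not share the low values. It measured 3.11, 2.22 and 3.89 CPM in WT and 3.20, 2.82 and 3.29 CPM in KO, with KO inside the WT range (log2 0.01 ± 0.23, edgeR adjusted p = 0.985). Its paralogues Hoxa9, Hoxc9 and Hoxd9 were at 27.6%, 36.6% and 25.2% of the WT mean in KO replicate 1, where Hoxb9 was at 104% (counting interval 79.7% to 133%). Over the 4 genes of group 9, the summed level was 17.1 ± 2.39 CPM in WT and 7.12, 9.84 and 22.6 CPM in KO replicates 1, 2 and 3. Group 10, which has no cluster B gene, stood at 18.4 ± 2.08 CPM in WT and at 1.75, 6.07 and 16.4 CPM in KO. Group 11 stood at 1.6 ± 0.726 CPM in WT and at 0, 0.287 and 0.865 CPM in KO.

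Posterior rows under the filter had few counts. Counts of Hoxd10 were 7, 3 and 6 in WT against 1, 0 and 1 in KO, and those of Hoxc11 10, 5 and 5 in WT against 0, 1 and 4 in KO. For both, the KO libraries all lay below the WT libraries, on few counts. Counts of Hoxa13 were 2, 6 and 1 in WT against 0, 3 and 3 in KO, and no difference was detectable at this depth.

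The posterior share of all coding Hox counts put the split in a single number per library. It was 12.7%, 14.2% and 10.8% in WT replicates 1, 2 and 3 (mean 12.6% ± 1.75, SD, n = 3) and 3.15%, 6.0% and 14.3% in KO replicates 1, 2 and 3 (mean 7.81% ± 5.79, SD, n = 3). The 95% Clopper-Pearson intervals were 2.70% to 3.64% in KO replicate 1, 5.40% to 6.65% in KO replicate 2 and 13.4% to 15.2% in KO replicate 3, for counting error only. In cluster A alone the share was 13.9% to 19.5% in WT and 3.20%, 6.99% and 19.5% in KO, and in cluster C it was 31.5% to 38.2% in WT and 6.80%, 21.8% and 32.0% in KO. In cluster B it stayed between 1.95% and 3.04% in all libraries. In cluster D, where Hoxd8 was low along with Hoxd9, the share was 35.3% and 34.8% in KO replicates 1 and 2 on 34 and 69 counts, against 25.7% to 26.9% in WT, and the intervals overlapped. Leaving out KO replicate 1, 2 or 3 in turn put the KO mean over all clusters at 10.1%, 8.72% or 4.57%. The mean does not describe any single KO library.

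**Figure D3:**
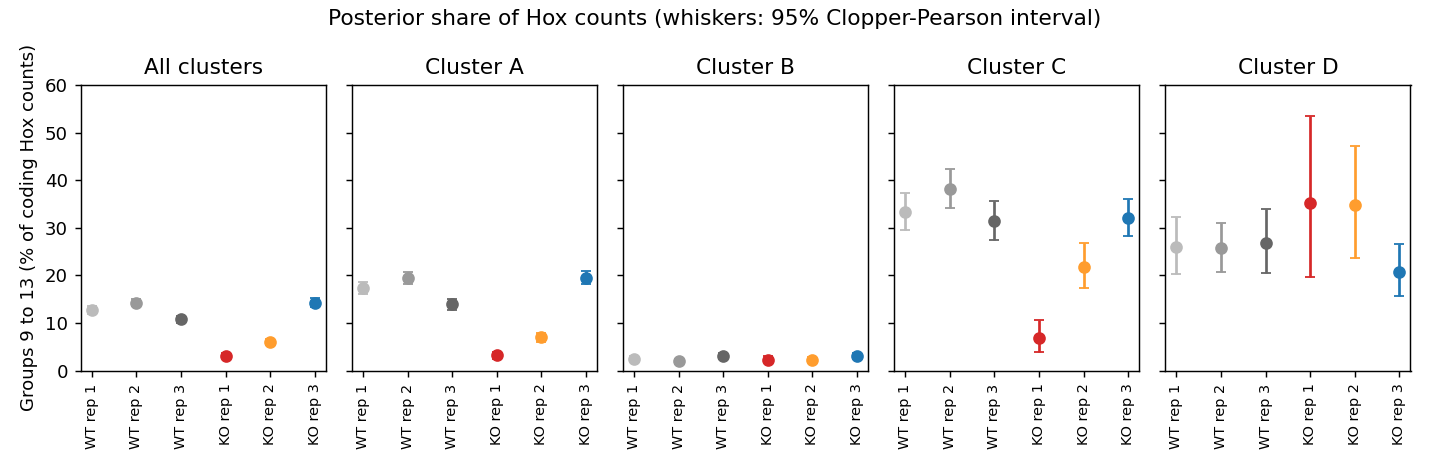
Counts of groups 9 to 13 as percent of coding Hox counts in each library, over all clusters and within each cluster, with 95% Clopper-Pearson intervals. KO replicates 1 and 2 lie at 3.15% and 6.0% over all clusters, below the WT libraries at 10.8% to 14.2%, and KO replicate 3 lies at 14.3%.

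By class, the median log2 fold change was −0.87 over the 7 tested posterior genes, −0.14 over the 14 central and 0.15 over the 5 anterior genes, against a median of 0.012 over all tested genes. Among posterior genes 6 of 7 were below 0, among central genes 10 of 14 and among anterior genes 2 of 5. The posterior median rested on KO replicates 1 and 2: leaving out KO replicate 1 gave −0.54, and leaving out KO replicate 3 gave −1.38. With KO replicate 3 as the sole KO library, whose spread is taken to be that of WT, it was −0.11, and the anterior median turned from 0.15 to −0.11. The range between libraries differed between genotypes too. Within KO the highest library was at least 2-fold above the lowest for 6 of 7 posterior genes, 2 of 14 central and 0 of 5 anterior genes, where 10.6% of all tested genes reached that range. Within WT it was so for 1 posterior gene and no central or anterior gene (0 of 5 anterior), where 8.02% of all tested genes did.

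**Figure D4:**
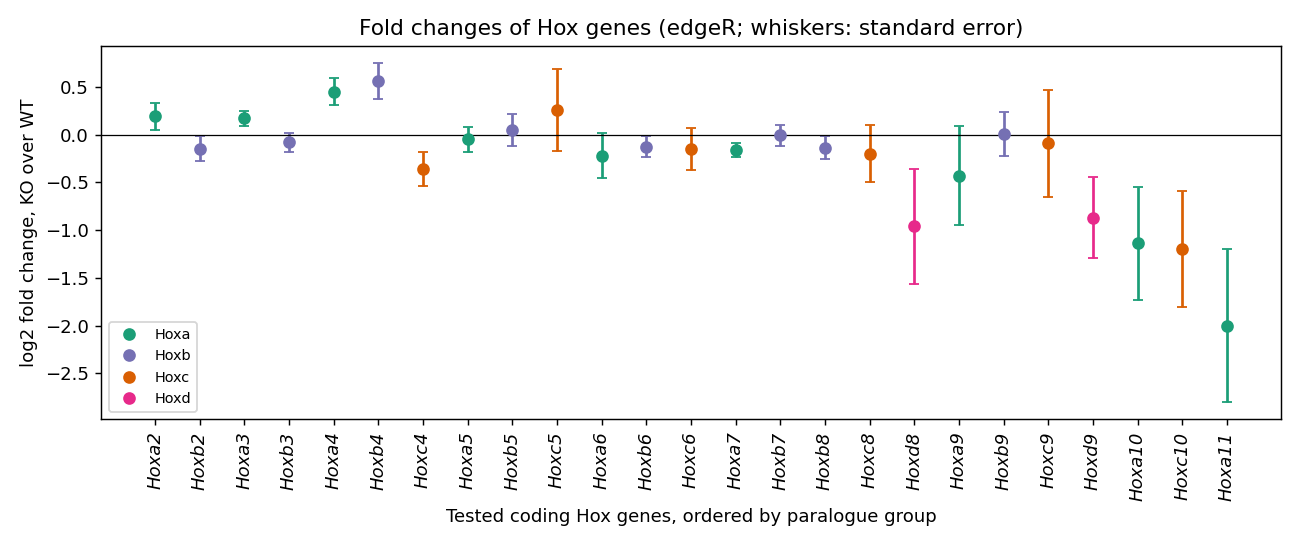
Log2 fold change of KO over WT for tested coding Hox genes, ordered by paralogue group and coloured by cluster, with edgeR standard errors. Values of anterior and central genes lie within 0.56 of 0 apart from Hoxd8, and Hoxa10, Hoxc10 and Hoxa11 lie at −1.14, −1.20 and −2.0 with wide errors.

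Anterior genes overlapped between genotypes (5 of 5 tested). Hoxa2 measured 7.75 to 8.65 CPM in WT and 10.4, 10.2 and 7.70 CPM in KO (log2 0.19 ± 0.14). Hoxa3, which acts in pharyngeal arch arteries and the thymus, measured 34.5, 31.9 and 36.4 CPM in WT and 39.8, 40.4 and 35.4 CPM in KO (log2 0.17 ± 0.081, edgeR adjusted p = 0.378). For Hoxa2 and Hoxa3 it was KO replicates 1 and 2 that lay above all WT libraries. Hoxb2 measured 21.1 to 25.1 CPM in WT and 24.2, 20.9 and 17.8 CPM in KO, and Hoxb3 26.3 to 29.3 in WT and 29.2, 24.1 and 24.2 in KO, both overlapping. Exons of Hoxb3 lie to 52.9% under Hoxb3os on the other strand, so its counts are uncertain.

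Among central genes, the group 4 paralogues differed in direction by cluster. Hoxa4 measured 6.27, 5.84 and 6.75 CPM in WT and 9.23, 9.32 and 7.27 CPM in KO, all KO libraries above all WT libraries (log2 0.45 ± 0.14, edgeR adjusted p = 0.277). Hoxb4, a factor of blood stem cell expansion, measured 12.7, 11 and 12.5 CPM in WT and 23.6, 15.6 and 14.1 CPM in KO, also without overlap. Its log2 fold change was 0.56 ± 0.19 (edgeR adjusted p = 0.279), and 0.30 without KO replicate 1. Hoxc4 went the other way, at 4.57, 4.05 and 3.93 CPM in WT and 3.71, 2.68 and 3.42 CPM in KO (log2 −0.36 ± 0.18, adjusted p = 0.390). Summed over its 4 members, group 4 stood at 22.9 ± 1.20 CPM in WT and at 36.7, 27.8 and 25.5 CPM in KO replicates 1, 2 and 3. With KO replicates 1 and 2 left out, log2 fold changes were 0.20 for Hoxa4 and 0.22 for Hoxb4.

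Other central genes of clusters A and B overlapped between genotypes. Hoxa7, the highest member per kilobase, measured 40.6, 43.6 and 44.8 CPM in WT and 38.9, 40.7 and 36.3 CPM in KO (log2 −0.16 ± 0.072, edgeR adjusted p = 0.364). Hoxa5, a regulator of lung and diaphragm development, measured 19.2 to 20.3 CPM in WT and 23.3, 16.1 and 18.1 CPM in KO. Hoxa6 measured 1.90 to 2.37 CPM in WT and 1.44, 1.82 and 2.34 CPM in KO, so KO replicates 1 and 2 were lowest for it as well. Hoxb5, Hoxb6, Hoxb7 and Hoxb8 had log2 fold changes of 0.05, −0.13, −0.01 and −0.14, each with overlapping groups. In cluster C, Hoxc6 measured 4.61 to 6.75 CPM in WT and 5.21, 4.01 and 6.57 CPM in KO. Hoxc5 measured 0.913 to 1.47 CPM in WT and 0.619, 2.05 and 1.56 CPM in KO. GENCODE M21 gives Hoxc5 a model that starts inside Hoxc10 and shares 5.37% of its exon length with it, so the counts of Hoxc5 are uncertain too.

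Of the 4 tested noncoding rows, 3 lay above 0 and Hoxd3os1 below, at −0.41, which turned to 0.11 without KO replicate 1 and to 0.13 without WT replicate 2. Hotairm1, transcribed from the anterior end of cluster A, measured 3.32, 2.90 and 2.86 CPM in WT and 4.18, 3.68 and 3.11 CPM in KO (log2 0.27 ± 0.18, edgeR adjusted p = 0.495). Hoxb3os measured 4.43 to 5.35 CPM in WT and 6.96, 5.73 and 5.19 in KO, and Hoxb5os 2.40 to 2.86 in WT and 3.04, 2.82 and 2.21 in KO. Hoxd3os1, which spans Hoxd8 on the other strand, was at counts of 14, 42 and 20 in WT against 1, 9 and 41 in KO. As for Hoxd8, KO replicates 1 and 2 were the lowest. Counts of Hoxa11os were 7, 8 and 5 in WT against 0, 0 and 1 in KO. Hotair, a noncoding RNA of the posterior part of cluster C, had 4 counts in each WT library and 0, 4 and 0 in KO, too few for a comparison. Within the clusters by table order stood 40 further rows that are not members, of which 22 were at 0 and 9 were tested. Among these, chosen after their values were seen, Hoxaas3 measured 0.830, 0.954 and 0.745 CPM in WT and 2.27, 1.39 and 1.99 CPM in KO (log2 1.15 ± 0.28, edgeR adjusted p = 0.263), and Hoxaas2 5.23 to 7.23 in WT and 10.5, 10.1 and 6.57 in KO. Both overlap Hoxa3 exons on the other strand, and Hoxaas3 those of Hoxa7 too.

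Over all members, KO replicates 1 and 2 were the lowest pair of the 6 libraries for 10 of 30 tested rows (33.3%), where they were for 9.64% of all tested genes. The 10 were Hoxa6, Hoxa9, Hoxa10, Hoxa11, Hoxc8, Hoxc9, Hoxc10, Hoxd8, Hoxd9 and Hoxd3os1, and KO replicate 1 was the lower of the pair in 10 of 10. This count was made after the split had been seen and has no test.

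Other genes around the Hox system, from lists chosen with earlier results of these data known, had no called member in edgeR or DESeq2. Of those named below, Rarb, Hand2 and Tbx1 got no adjusted p in DESeq2, which therefore could not call them. Genes flanking the clusters had 8 of 20 tested above 0 and a median log2 of −0.01. Of those named by smallest p, Atf2 near cluster D measured 58.2, 66.9 and 60.8 CPM in WT and 55.7, 52.1 and 57.0 CPM in KO. The TALE cofactors with which Hox proteins bind DNA had 1 of 8 above 0 and a median of −0.09. That 1 was Meis3, at 18.3, 21.1 and 17.3 CPM in WT and 28.2, 26.4 and 23.0 CPM in KO (log2 0.45 ± 0.11, adjusted p = 0.263 in edgeR and 0.0512 in DESeq2).

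Chromatin regulators that keep Hox genes silent or active came next. Polycomb genes had 12 of 30 above 0 (median −0.03), and Rnf2, a catalytic subunit, measured 27.5 to 28.5 CPM in WT and 23.6 to 25.3 in KO (log2 −0.21 ± 0.067). Trithorax genes and H3K27 demethylases had 8 of 15 above 0 (median 0.01), with Kmt2d at 78.9 to 88.1 CPM in WT and 97.1 to 99.3 in KO (log2 0.22 ± 0.061, adjusted p = 0.264). Axial patterning signals, mainly retinoic acid and Cdx genes, had 7 of 12 above 0 (median 0.03), and Cdx1, Cdx2 and Cdx4 were at 0 in all libraries. The retinoic acid receptor Rarb measured 9.46, 11.8 and 10.4 CPM in WT and 16.0, 16.0 and 9.39 CPM in KO, high in the libraries in which posterior Hox genes were low (log2 0.38 ± 0.21, edgeR adjusted p = 0.419). The list as a whole did not keep that split. Of its 19 detected genes, 13, 3 and 6 were above every WT library in KO replicates 1, 2 and 3.

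Arch and outflow tract factors had 7 of 12 tested above 0 and a median of 0.08. Hand2, a factor of arch arteries and heart, measured 0.457, 0.516 and 0.455 CPM in WT and 3.30, 0.764 and 0.822 CPM in KO (log2 1.75 ± 0.62, edgeR adjusted p = 0.285). Tbx1, a factor of the pharyngeal arches, measured 1.37 to 1.95 CPM in WT and 3.61, 2.05 and 2.68 CPM in KO, and Gata6 73.9 to 84.8 in WT and 65.4 to 71.2 in KO. All 3 were named for their smallest p in the list, and all were without overlap. Every KO library lay below every WT library for 11.3% of all tested genes, and above for 10.5%. Hand2 and Tbx1 were highest in KO replicate 1, where posterior Hox genes were lowest. The list as a whole did not keep the split in genes above every WT library. Of its 20 detected genes, 11, 6 and 11 were so in KO replicates 1, 2 and 3, and 10, 1 and 4 were highest there.

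Markers of other cell types moved with single libraries. Of 14 heart muscle markers, 12 were highest in KO replicate 1, the exceptions being Ryr2 and Pln, and the summed level was 99.2 to 129 CPM in WT and 194, 125 and 121 CPM in KO replicates 1, 2 and 3. The cardiac myosin gene Myh6 measured 13.4, 3.06 and 0.433 CPM in KO and 0.374 to 1.63 in WT, while Nppa and Myl3 were at or near 0 in all libraries. Fibroblast markers were highest in KO replicate 1 for 7 of 8 genes (sum 1440 CPM, against 645 and 1170 in KO replicates 2 and 3 and 584 to 994 in WT), and nerve and Schwann markers for 5 of 8 (59.1 CPM, against 34.6 to 44.8 elsewhere). Among those 5, Th and Dbh were highest on 1 count each (0.0516 CPM). Of the 14 heart markers, 13 in KO replicate 1, 6 in KO replicate 2 and 3 in KO replicate 3 were above every WT library. In KO replicate 2 these included Tnni3 (4.16 CPM, against at most 2.94 in WT) and Myl4 (9.03 CPM, against at most 6.75), besides Myh6. Of the 8 fibroblast markers 8, 0 and 5 were above every WT library in KO replicates 1, 2 and 3. Macrophage markers (52.3 to 138 CPM in KO, 56.4 to 93.8 in WT) and endothelial markers (430 to 736 in KO, 378 to 499 in WT) were highest in KO replicate 3 for 10 of 10 and 8 of 10 genes. Adipocyte markers were highest in KO replicate 3 for 7 of 10 genes and in KO replicate 1 for 2. They summed to 120 to 185 CPM in KO and 85.9 to 177 in WT. Skeletal muscle markers summed to 10.7 to 13.8 and 9.32 to 14.9, mesothelial markers to 0.413 to 1.12 and 0.124 to 0.332, and lymphocyte markers to 0.478 to 0.567 and 0.159 to 1.83. The part of these cells in the Hox values was not tested, and in bulk RNA fewer cells of a kind and less RNA per cell cannot be told apart.

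**Figure D5:**
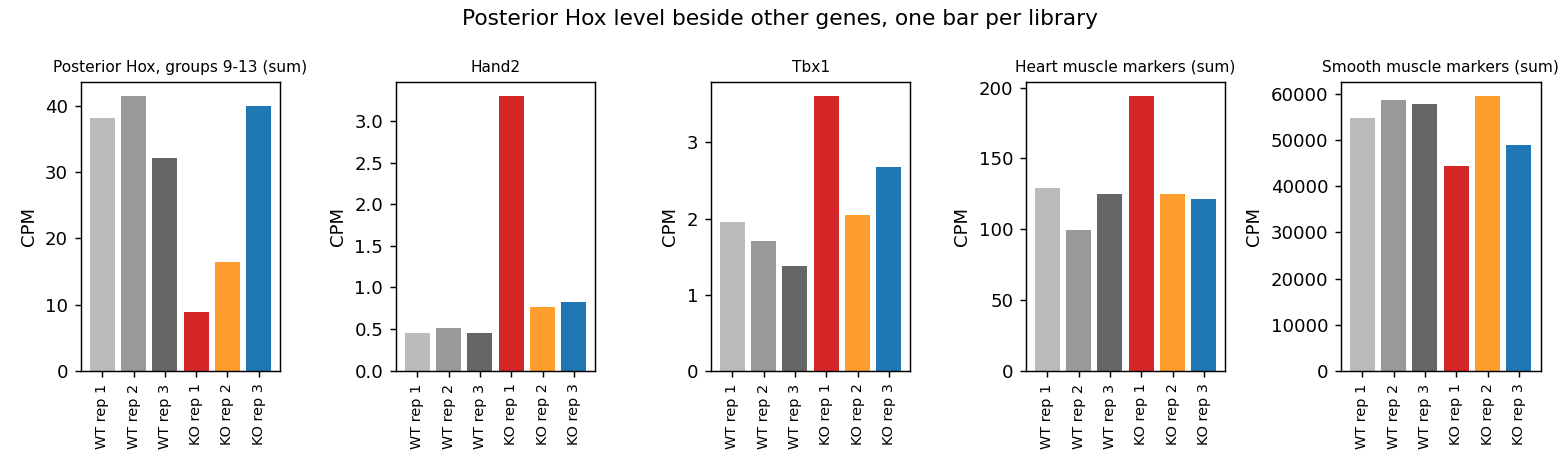
Summed CPM of the posterior Hox genes, CPM of Hand2 and Tbx1, and summed CPM of heart and smooth muscle markers, with 1 bar per library. Posterior Hox genes sum to 8.871, 16.39 and 40.05 CPM in KO replicates 1, 2 and 3. Hand2 stands at 3.30 CPM in KO replicate 1 against at most 0.822 elsewhere, and heart markers at 194 CPM in that library. Hand2 and Tbx1 were named from their list for small p.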

How the data were processed

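RNA-seq of 3 WT and 3 KO aortic libraries was read from 1 deposited table of raw read counts (53735 rows), made by the authors on GRCm38. The submitters' processing notes name, without roles, STAR 2.6.0c, Trimmomatic 0.36, Subread 1.6.1 and featureCounts. Libraries were Illumina TruSeq Stranded mRNA, per the labels. The sources used here do not give the annotation release, strand setting or handling of multi-mapping reads, so counts of overlapping and antisense Hox rows are uncertain.

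The main test was edgeR 4.0.16 (R 4.3.3): quasi-likelihood, TMM, filterByExpr (minimum count 10, minimum total 15; 14145 rows), genotype as the only term, two-sided, Benjamini-Hochberg over all tested rows, threshold 0.05. DESeq2 1.42.0, limma-voom (limma 3.58.1), other filters, a replicate block and leaving out each library were alternatives. The tools were tested on simulated data. Lengths are unions of GENCODE M21 exons, and levels per kb depend on them. P-values measure only the spread between these libraries, which may be technical. Named genes are members whose mean in WT or KO reached 1 CPM and up to 3 genes of smallest p per further list, with other members by count. Some items that this rule would name are not reported here. Members and lists were chosen with earlier results of these data known. Chi-square per gene between replicates was 15.03 to 69.29, so no library was counted as a duplicate. Floors are 3 counts.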

Additional observations from a re-analysis of the deposited data

How the results depend on the processing

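No Hox member was called under any of the 14 alternatives (0 in each direction, by edgeR under other scalings, filters, samples and a replicate block, by DESeq2 and by limma-voom). Some alternatives could not call posterior genes: DESeq2 gave them no adjusted p, and the filter at a mean count of 50 left out Hoxa11, Hoxc9 and Hoxd9. Counts over all genes did change, from 0 higher and 1 lower to 60 and 139 with DESeq2, 5 and 4 without a filter, 44 and 1 without KO replicates 1 and 2, a choice made after the data were seen, 0 and 0 with the replicate block, and 0 to 2 higher and 0 to 1 lower over single left-out libraries (2 higher without KO replicate 2, 0 lower without WT replicate 1). Whether the replicate numbers pair the libraries could not be settled from 3 libraries per genotype. Same-numbered deviations correlated at 0.107, 0.134 and −0.056, and those of unlike number at −0.283 to 0.179. WT replicate 1 correlated best with KO replicate 3 (0.179), and WT replicate 2 with KO replicate 2 (0.134). With the block the posterior median was −0.95. Over single left-out libraries the median over all coding Hox genes, −0.14, lay between −0.16 and −0.08. Without KO replicates 1 and 2 the medians were −0.11 for anterior genes (0.15 with all libraries), −0.02 for central genes and −0.20 for cluster B, and with rows of a mean count under 50 left out that of cluster A was 0.06. Without mitochondrial and hemoglobin genes in the library totals, summed levels were 332.8 CPM in WT and 312.3 in KO for all coding Hox genes, 108.3 and 110.7 for anterior and 182.6 and 177.2 for central genes. The posterior share was 6.83% in WT and 3.08% in KO for groups 10 to 13 only, and 20% in WT and 15.7% in KO as a mean over the 4 clusters; the differences come from what each share counts. Per kb of exon, also chosen after the data were seen, it was 11.4% in WT and 6.71% in KO. Low counts limit Hoxa11 and cluster D: 1 count is 0.0397 to 0.0516 CPM.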
